A study of Mus musculus with 20 samples.

Results

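The core circadian clock genes were followed in RNA of the mouse hippocampus. The 10 genes, Arntl, Clock, Npas2, Per1, Per2, Per3, Cry1, Cry2, Nr1d1 and Dbp, were taken by symbol from a table of 25190 genes, and each was found once and had reads in all 20 libraries, 255 or more per library. The libraries came from 4 groups of 5 mice. Artificial cerebrospinal fluid was given to Vehicle mice. Control mice were given sRNAs pooled from hippocampi of people without psychiatric disorders, and Pool 1 and Pool 2 mice sRNAs pooled from separate cohorts of patients with schizophrenia. All mice were wild-type C57BL/6JOlaHsd males aged 4 months that had undergone cannula surgery, infusion into the dorsal CA1 of both hemispheres and behavioural testing, under an inverted light/dark cycle. Each pool is 1 mixture of donors, so mice of a group share the infused material. Tissue was taken 24 h after the last behavioural test, and the clock time at which each mouse was sampled is not given in the sources used here.

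The clock of mammalian cells is a loop of transcription and repression that takes about a day. ARNTL (BMAL1) pairs with CLOCK, or in the forebrain with NPAS2, binds E-boxes and switches on the Period and Cryptochrome genes, whose proteins return to the nucleus and repress the pair. NR1D1 (REV-ERBα) is switched on by the same pair and represses Arntl in turn, and DBP carries the rhythm to output genes through D-boxes. Transcripts of Arntl and of direct targets such as Dbp and Nr1d1 therefore peak at opposite times of day in most tissues, hippocampus included, and Dbp has one of the widest swings. A mouse or group sampled at a different clock phase would be read from several of these genes moving together in opposed directions.

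The promoters of the genes themselves were searched for regulatory elements of the loop. RefSeq promoter windows (GRCm38.p6, around each transcription start) were found for 9 of the 10 genes, all but Per2, and were searched on both strands for the E-box CACGTG, the D-box TTATGTAA or TTACGTAA, the ROR element TAGGTCA or TGGGTCA, which NR1D1 and the ROR factors share, and the cAMP response element TGACGTCA. Of 32851 promoters in the same table, 7.15% hold this E-box, 1.06% the D-box, 6.45% the ROR element and 1.79% the cAMP response element. These shares are per window, and Clock, Arntl and Per1 had more than 1 window. Of these genes, 4 had a match, printed here with the motif in capitals and positions counted from the transcription start. Npas2, Cry2, Clock, Dbp and Nr1d1 had none in their windows. The windows are short (chr7:45704997-45705296 for Dbp) and only exact letters were searched. Elements outside them or with other letters would be missed, so no match does not mean no element. Per1 (chr11:69098757-69098814, plus strand) and Cry1 (chr10:85185083-85185140, minus strand), which encode repressors of the loop, each held 1 E-box, at -166 and -60. Per3 (chr4:151044790-151044896, minus strand) held a pair of D-boxes, at -205 and -158. A window of Arntl (chr7:113207530-113207559, plus strand) held the ROR element at 31. A match of letters is not evidence of binding.
Per1 E-box: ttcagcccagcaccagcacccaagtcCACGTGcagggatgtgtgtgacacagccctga
Cry1 E-box: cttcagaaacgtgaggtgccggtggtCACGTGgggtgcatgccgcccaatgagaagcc
Per3 D-boxes: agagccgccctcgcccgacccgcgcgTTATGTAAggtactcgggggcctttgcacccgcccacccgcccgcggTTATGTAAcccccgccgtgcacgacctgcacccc
Arntl ROR element: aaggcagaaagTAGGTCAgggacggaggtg

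Libraries held between 20588280 and 25543939 counts. Markers of CA1 pyramidal neurons (Wfs1, Fibcd1, Pou3f1 and Man1a) were present in every library, with summed levels of 318 to 949 CPM, the library-size scaled count unit used throughout, with TMM factors. Summed dentate granule markers (Prox1, C1ql2, Dsp, Tdo2 and Calb1) ran from 227 CPM in Pool 1 mouse 5 to 634 CPM in Pool 1 mouse 1. Neighbouring tissue differed between libraries as well. Summed choroid plexus markers reached 8925 CPM in Vehicle mouse 4 against 91.4 to 2277 CPM in the other libraries, and summed thalamus markers reached 366 CPM in Pool 2 mouse 4 and 200.1 CPM in Pool 2 mouse 2 against 42.1 to 139 CPM elsewhere. Pool 2 mouse 1 had the highest sums for microglia (786 CPM), astrocytes (2904 CPM) and interferon response genes (67.3 CPM). In bulk tissue, fewer cells of a type and less RNA per cell cannot be told apart.

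The level of each gene was first compared per length, as CPM per kilobase of its merged exons (mean ± SD over 20 mice). Nr1d1 (24.0 ± 3.68) and Cry2 (23.6 ± 2.18) were highest, followed by Dbp (17.0 ± 3.50) and Per1 (11.9 ± 1.94). Clock (7.61 ± 1.25), Per2 (7.50 ± 1.09), Per3 (6.06 ± 0.952), Arntl (5.26 ± 0.342), Cry1 (4.43 ± 0.434) and Npas2 (3.77 ± 0.689) followed. The ranges of mean ± SD overlapped between Nr1d1 and Cry2, Dbp and Per1, Clock and Per2, Per2 and Per3, Per3 and Arntl, and Cry1 and Npas2, and did not between the other neighbours in this order.

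The genes also differed in how far they varied between mice. Dbp ranged 2.11-fold over the 20 mice, Clock 1.97-fold, Per3 1.93-fold and Npas2 1.92-fold, whereas Arntl ranged only 1.32-fold and Cry1 1.37-fold. As the SD of log2 CPM, Dbp (0.29) was at the 88.3rd percentile of 10181 genes with a mean of at least 10 CPM, and Arntl (0.10) at the 6.69th percentile, where the median gene had 0.17. Clock stood at the 84.3rd percentile and Npas2 at the 83.2nd, Per1, Per3, Nr1d1 and Per2 between the 71.2nd and 77.6th, and Cry1 and Cry2 at the 34.3rd and 27.4th. The activator gene Arntl was thus among the steadier transcripts of the tissue in these mice, and the output gene Dbp among the more variable.

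**Figure D1:**
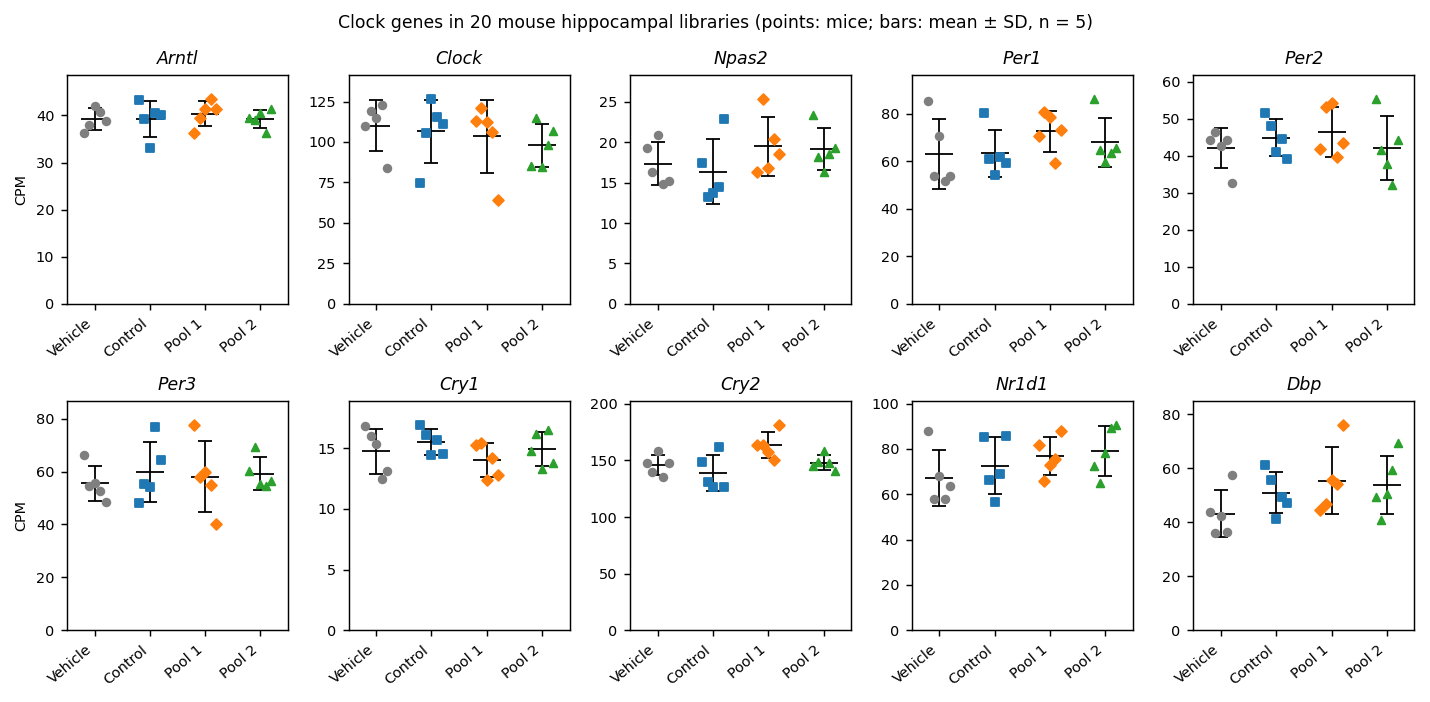
Level of each clock gene in CPM (y axis, from 0) for the 5 mice of each of the 4 groups (x axis), with black bars for the group mean ± SD. The groups overlap for all 10 genes. Pool 1 mouse 5 has the lowest Clock (64.2 CPM) and the highest Dbp (76.0 CPM) of the 20 mice.

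The main question was whether any infusion shifted the clock genes. The cut-offs of the study were kept and are called its threshold below. The study applied them to the Wald test of DESeq2 and left out genes with a mean normalized count under 10. Here they were applied to edgeR's quasi-likelihood test across all 25190 genes, without that filter. A gene thus counted as changed when its log2 fold change was 0.3 or more in either direction and its unadjusted p was under 0.05. By this rule 0 of the 10 clock genes changed in Pool 1 versus Control, where 3.48% of all genes did, and 0 in Pool 2 versus Control, where 6.22% did. The same count of 0 was obtained in Pool 2 versus Pool 1 (6.82% of all genes) and in Control versus Vehicle (5.10% of all genes). Between the groups of each comparison the values of all 10 genes overlapped. With so few members, a count of 0 is also near what the background share gives. Without the size criterion, at an unadjusted p under 0.05, 1 of the 10 genes, Cry2, was called in Pool 1 versus Control (background 5.22%), and 0 in Pool 2 versus Control (7.70%), Pool 2 versus Pool 1 (8.52%) and Control versus Vehicle (6.64%). At an adjusted p under 0.05, edgeR called 0 of the 25190 genes in each of these comparisons and in the test of the 4 groups. DESeq2, the alternative tool, called 7, 18, 115 and 0 genes at an adjusted p under 0.05 in the same order of comparisons and 161 in the test of the 4 groups, and 0 clock genes in any of them. Past the study's threshold, DESeq2 also counted 0 clock genes in each of the 4 comparisons, and at an unadjusted p under 0.05 it called Cry2 alone, in Pool 1 versus Control and in Pool 2 versus Pool 1.

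The activators of the loop gave the following values. Arntl, which encodes the obligate partner in the activating pair, measured 36.2, 38.0, 42.1, 40.8 and 38.9 CPM in Vehicle mice 1 to 5 and 43.3, 39.3, 33.1, 40.4 and 40.2 CPM in Control mice. In Pool 1 mice it measured 36.3, 39.5, 41.3, 43.5 and 41.4 CPM, and in Pool 2 mice 39.5, 39.1, 40.5, 36.3 and 41.3 CPM. Control mouse 3 was the lowest, at 33.1 CPM, and the group means of Arntl lay between 39.2 and 40.4 CPM. Its log2 fold change was 0.04 ± 0.08 (SE, exact permutation p = 0.571) in Pool 1 versus Control and 0.00 ± 0.08 (exact permutation p = 0.905) in Pool 2 versus Control. The 95% intervals derived from the edgeR tests were -0.12 to 0.20 and -0.16 to 0.16. Here and for the other genes, the exact permutation tests were two-sided over the mice of both groups, where 5 mice against 5 cannot go below p = 0.00794.

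Clock encodes the partner of ARNTL in most tissues. It measured 109.8, 119, 115, 123 and 83.7 CPM in Vehicle mice, 74.7, 105, 126, 115 and 111 CPM in Control mice, 113, 121, 113, 106 and 64.2 CPM in Pool 1 mice and 85.3, 115, 84.5, 98.3 and 107 CPM in Pool 2 mice. Low values occurred in every group: Vehicle mouse 5, Control mouse 1, Pool 1 mouse 5 and Pool 2 mice 1 and 3 held 64.2 to 85.3 CPM, and the other 15 mice 98.3 CPM or more. The difference was -0.04 ± 0.15 on the log2 scale in Pool 1 versus Control (exact permutation p = 0.690) and -0.12 ± 0.15 in Pool 2 versus Control (exact permutation p = 0.508). Intervals for Clock were wide, -0.44 to 0.20 in Pool 2 versus Control.

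Npas2 encodes the paralog that replaces CLOCK in parts of the forebrain. It measured 19.3, 16.4, 20.9, 14.8 and 15.2 CPM in Vehicle mice, 17.5, 13.2, 13.7, 14.5 and 22.9 CPM in Control mice, 16.3, 25.3, 16.8, 20.4 and 18.5 CPM in Pool 1 mice and 23.4, 18.1, 16.4, 18.5 and 19.2 CPM in Pool 2 mice. Both pools had higher means (19.5 and 19.1 CPM) than Control (16.3 CPM), but the highest Control mouse exceeded all but 2 of the 10 pool mice. The log2 differences were 0.25 ± 0.15 (exact permutation p = 0.198) for Pool 1 and 0.23 ± 0.15 (exact permutation p = 0.167) for Pool 2, and these comparisons share the Control mice. Without Control mouse 5, Npas2 passed the study's threshold against both pools, with log2 differences of 0.40 and 0.38 in edgeR. With the GC and length measures described further on as covariates, the Pool 1 difference of Npas2 was 0.16.

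Among the repressors, Cry2 had the largest difference relative to its spread. CRY2 binds the activating pair with PER proteins and silences it. The gene measured 148, 139.9, 158, 135 and 148 CPM in Vehicle mice and 149, 131, 127, 162 and 126 CPM in Control mice. It measured 164, 164, 158, 151 and 181 CPM in Pool 1 mice and 145, 149, 158, 147 and 141 CPM in Pool 2 mice. Pool 1 mice lay at the upper end, and 1 Control mouse, at 162 CPM, was within their range. Cry2 was 1.18-fold higher in Pool 1 than in Control, a log2 difference of 0.23 ± 0.08 (95% interval 0.07 to 0.40), with an unadjusted p of 0.00735 and an adjusted p of 0.917 over all genes in edgeR and p = 0.0317 in the exact permutation test. In Pool 2 versus Control the difference was 0.09 ± 0.08 (exact permutation p = 0.246, interval -0.07 to 0.25). In Pool 2 versus Pool 1 it was -0.14 ± 0.08, with an unadjusted p of 0.0859 in edgeR and p = 0.0238 in the exact permutation test. In the test of the 4 groups at once, Cry2 was the only clock gene with an unadjusted p under 0.05 (adjusted p = 0.630 in edgeR, background 7.86%).

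The size of the Cry2 difference and its place in the test of the 4 groups depended on how the libraries were treated. When the GC and length measures of each library, described further on, were entered as covariates, the difference in Pool 1 versus Control was 0.15, still with an unadjusted p under 0.05 (adjusted p = 0.998, edgeR). Cry2 in Pool 2 versus Pool 1 was then at -0.13, with an unadjusted p under 0.05 (adjusted p = 0.383, edgeR), and the unadjusted p of this comparison was also under 0.05 in DESeq2, with filterByExpr, with only the 2 groups and without Vehicle mouse 1. In the test of the 4 groups Per3 took the place of Cry2 as the only clock gene with an unadjusted p under 0.05. Vehicle mouse 4 was the library richest in choroid plexus markers, and Pool 2 mouse 1 in microglia, astrocyte and interferon response markers. Without these libraries the Pool 1 difference of Cry2 was 0.23. In the test of the 4 groups, 0 clock genes then had an unadjusted p under 0.05. Leaving out 1 library at a time gave between 0.19 and 0.29 for Cry2 in Pool 1 versus Control, with the unadjusted p under 0.05 each time.

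The other repressors followed. Per1, the Period gene most readily induced by light, stress and neuronal activity, measured 85.5, 53.8, 70.7, 51.8 and 53.8 CPM in Vehicle mice, 80.5, 61.1, 54.3, 61.8 and 59.4 CPM in Control mice, 70.7, 80.9, 78.8, 59.4 and 73.3 CPM in Pool 1 mice and 86.2, 64.8, 59.7, 63.6 and 65.5 CPM in Pool 2 mice. In Vehicle, Control and Pool 2 mice the mouse numbered 1 was the highest of its group. Per1 differed by 0.20 ± 0.14 (exact permutation p = 0.167) in Pool 1 versus Control and by 0.10 ± 0.14 (exact permutation p = 0.429) in Pool 2 versus Control. The Pool 1 difference of Per1 was 0.03 with GC and length covariates, and 0.30 without Control mouse 1, there with an unadjusted p under 0.05 but under the size criterion. Per2 ranged from 32.2 CPM in Pool 2 mouse 4 to 55.3 CPM in Pool 2 mouse 1, so that a single group held both ends of its range. Its log2 difference was 0.05 ± 0.13 (exact permutation p = 0.675) for Pool 1 and -0.09 ± 0.13 (exact permutation p = 0.508) for Pool 2.

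Per3, the third Period gene, ranged from 40.2 CPM in Pool 1 mouse 5 to 77.5 CPM in Pool 1 mouse 1, again within 1 group. These libraries also had the lowest and the highest summed dentate granule markers of the 20, 227 and 634 CPM. The part of subfield composition in the Per3 range was not tested. The Per3 differences were -0.04 ± 0.14 (exact permutation p = 0.786) in Pool 1 versus Control, -0.01 ± 0.14 (exact permutation p = 0.992) in Pool 2 versus Control and 0.11 ± 0.14 (exact permutation p = 0.540) in Control versus Vehicle. With the library measures as covariates, the last of these became 0.27, with an unadjusted p under 0.05 (adjusted p = 0.736, edgeR) and still under the size criterion. In the same fit Per3 in Pool 1 versus Control was at -0.20 (adjusted p = 0.998, edgeR). Cry1, which encodes the other Cryptochrome, was the gene with the fewest reads, 255 to 416 per library, and lay between 12.4 and 16.9 CPM in all mice. It differed by -0.15 ± 0.10 (exact permutation p = 0.103) in Pool 1 versus Control and by -0.06 ± 0.10 (exact permutation p = 0.437) in Pool 2 versus Control. With the library measures as covariates, Cry1 in Pool 1 versus Control was at -0.24, with an unadjusted p under 0.05 (adjusted p = 0.998, edgeR). The 2 Cryptochrome genes thus had estimates of opposite sign in Pool 1. At an unadjusted p of 0.05, only that of Cry2 passed without the covariates, and both passed with them.

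Direct targets of the activating pair came next. Nr1d1, which encodes the repressor of Arntl, measured 87.8, 57.7, 68.2, 57.9 and 63.8 CPM in Vehicle mice, 85.2, 66.5, 56.6, 68.8 and 85.7 CPM in Control mice, 81.9, 65.7, 72.9, 75.7 and 87.9 CPM in Pool 1 mice and 72.4, 64.8, 78.0, 89.2 and 90.4 CPM in Pool 2 mice. Its group means were in the order Vehicle (67.1 CPM), Control (72.6 CPM), Pool 1 (76.8 CPM) and Pool 2 (79.0 CPM), and each step was smaller than the SD within groups, 8.49 to 12.6 CPM. The log2 differences from Control were 0.08 ± 0.13 (exact permutation p = 0.508) for Pool 1 and 0.12 ± 0.13 (exact permutation p = 0.405) for Pool 2.

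Dbp, the output gene with the wide daily swing, measured 43.9, 36.0, 42.3, 36.2 and 57.6 CPM in Vehicle mice and 61.4, 55.7, 41.4, 49.3 and 47.3 CPM in Control mice. In Pool 1 mice it measured 44.7, 46.7, 55.7, 54.3 and 76.0 CPM, and in Pool 2 mice 49.5, 40.9, 50.6, 59.3 and 69.4 CPM. The 2 lowest values of all 20 mice were in Vehicle and the highest in Pool 1, but each group reached into the range of the others. Dbp was 0.24 ± 0.16 higher on the log2 scale in Control than in Vehicle (exact permutation p = 0.159, interval -0.09 to 0.57). It differed by 0.12 ± 0.16 (exact permutation p = 0.595) in Pool 1 versus Control and by 0.08 ± 0.16 (exact permutation p = 0.651) in Pool 2 versus Control. Without Vehicle mouse 5, Dbp in Control versus Vehicle passed the study's threshold at a log2 difference of 0.37 in edgeR. With GC and length covariates the same difference of Dbp was 0.10 (adjusted p = 0.933, edgeR).

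**Figure D2:**
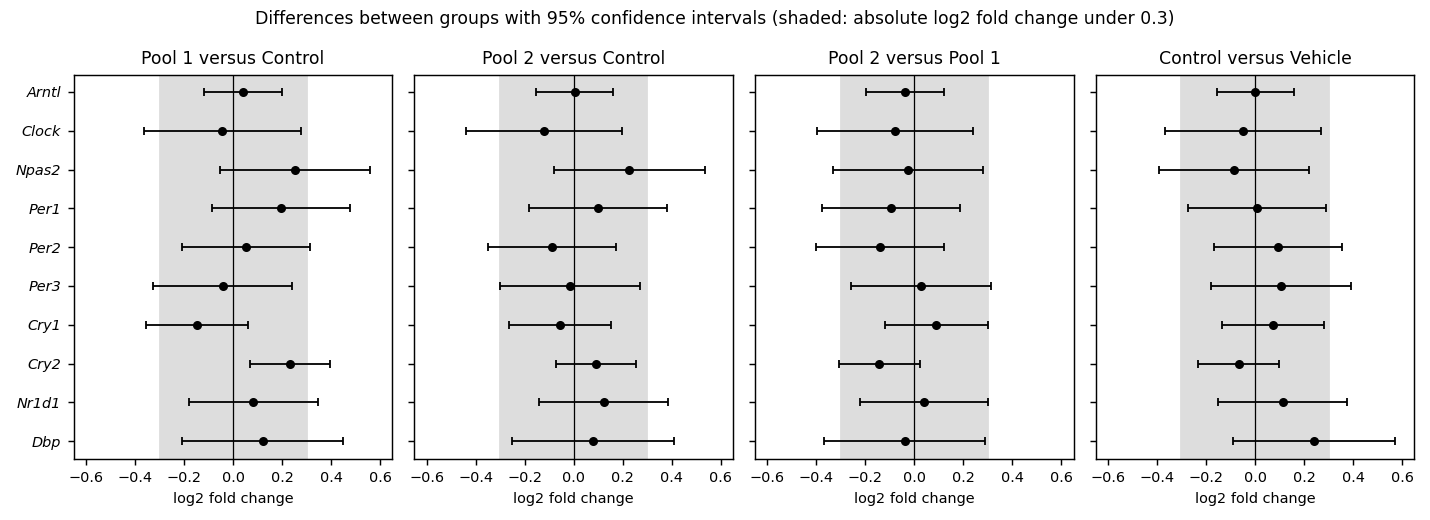
Log2 fold change (x axis) of each clock gene (y axis) in the 4 comparisons, with 95% confidence intervals derived from the edgeR tests. The shaded band marks absolute values under 0.3. All 40 estimates lie inside it, and 11 of the 40 intervals do.

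Across the 4 comparisons the largest absolute log2 difference of a clock gene was 0.25, 0.23, 0.14 and 0.24 (Npas2 in both pools versus Control, Cry2 in Pool 2 versus Pool 1 and Dbp in Control versus Vehicle). The median over the 10 genes was 0.07, 0.04, -0.04 and 0.04, beside medians over all genes of -0.01, 0.00, 0.02 and -0.01 in the same order. With GC and length covariates, values moved by over 1.5 times included Dbp in Pool 1 versus Control (0.21). In Pool 2 versus Control they included Clock (-0.06), Per2 (-0.20), Per3 (-0.09), Cry1 (-0.12), Cry2 (0.01), Nr1d1 (0.03) and Dbp (0.13). The intervals set how firmly this can be read. Of the 40 intervals, 11 lay wholly within 0.3 on either side of 0, among them those of Arntl in all 4 comparisons, and the widest reached 0.56 for Npas2 in Pool 1 and 0.57 for Dbp in Control versus Vehicle. For 9 of the 10 genes at least 1 interval thus held differences of the size the study counted, and for Arntl none did.

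Whether single mice differed in clock phase was examined through the relations between genes over the 20 mice. Dbp and Arntl, whose transcripts peak at opposite times, would be inversely related over mice sampled at different phases. Their log2 CPM gave Pearson's r = 0.38 (permutation p = 0.103, adjusted p = 0.384 over the 45 pairs of clock genes) and Spearman's rho = 0.38 (permutation p = 0.0956). Without the 2 mice farthest from the median of Arntl, Vehicle mouse 1 and Control mouse 3, r was 0.27, and after centring each group r was 0.38 (permutation p = 0.112). The mice with the highest Dbp, Pool 1 mouse 5 and Pool 2 mouse 5, had Arntl of 41.4 and 41.3 CPM, and the mice with the lowest Dbp, Vehicle mice 2 and 4, had 38.0 and 40.8 CPM. An inverse relation was thus not detected, and the correlation was positive in sign in each alternative computed.

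Of the 45 pairs, 2 passed an adjusted p of 0.05, and both involved Dbp. Dbp rose with Nr1d1, another direct target of the activating pair (r = 0.66, permutation p = 0.00174, adjusted p = 0.0391; rho = 0.63, adjusted p = 0.0765), with r = 0.56 without the 2 mice farthest from the Nr1d1 median. Within groups, after centring, r was 0.58 (permutation p = 0.0129, adjusted p = 0.118). Dbp fell with Clock (r = -0.72, permutation p = 0.00029, adjusted p = 0.0130; rho = -0.82, adjusted p = 0.00135), and r was -0.54 without Control mouse 1 and Pool 1 mouse 5, the mice farthest from the Clock median (permutation p = 0.0205). After centring each group, r was -0.73 (permutation p = 0.0021, adjusted p = 0.0945).

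**Figure D3:**
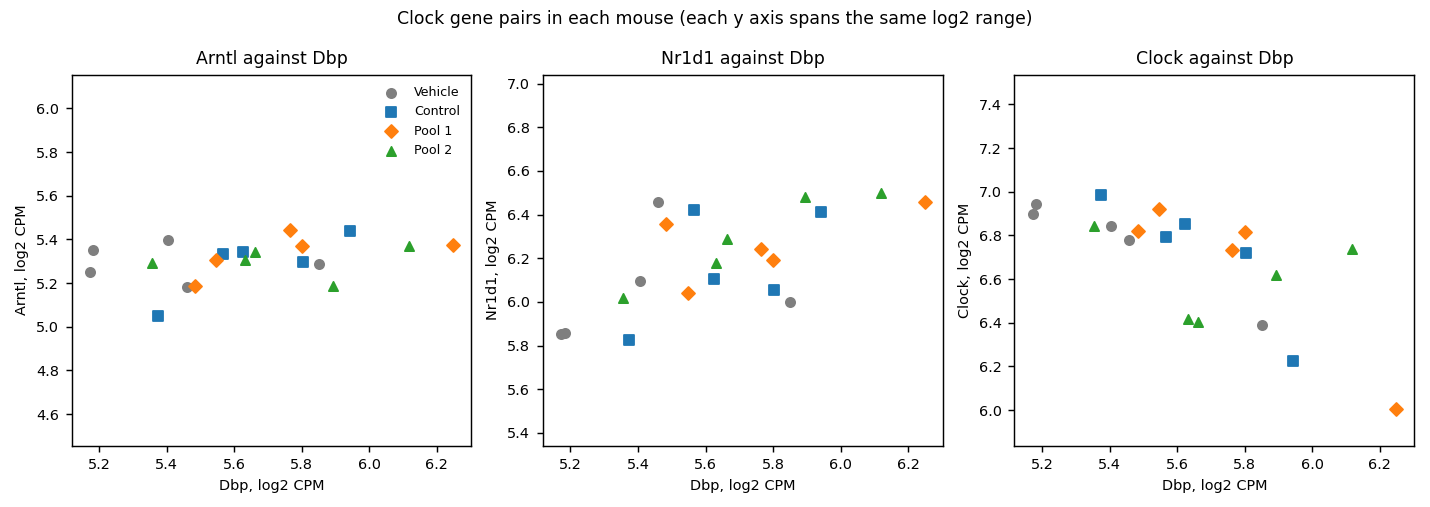
Log2 CPM of Arntl, Nr1d1 and Clock (y axes, each spanning the same log2 range) against log2 CPM of Dbp (x axes) in 20 mice, coloured by group. Arntl is nearly flat against Dbp (r = 0.38), Nr1d1 climbs (r = 0.66) and Clock declines (r = -0.72), and mice of the 4 groups are mixed along each axis.

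Other pairs were weaker. Per1 and Per2, which share the induction by light and activity, correlated at r = 0.59 (permutation p = 0.00571, adjusted p = 0.0642), and Npas2 and Per1 at r = 0.56 (permutation p = 0.0103, adjusted p = 0.0923). Clock and Per3 had r = 0.60 (permutation p = 0.0051, adjusted p = 0.0642), but rho was 0.33, and r was 0.27 without Control mouse 1 and Pool 1 mouse 5, so that the relation rested on those mice. Dbp was not detectably related to Per1 (r = 0.28) or Per2 (r = -0.07), and Arntl had no pair with an unadjusted p under 0.05, its values of r lying between -0.35 with Clock and 0.38 with Dbp. Dbp and Per3, both high at a similar time of day in other tissues, had r = -0.46 (permutation p = 0.0418, adjusted p = 0.211).

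The libraries themselves differed along an axis that Clock and Dbp followed. For each library a GC measure was taken as the mean deviation in log2 CPM of the 25% of 10181 genes richest in GC minus that of the 25% poorest in GC, and a length measure likewise for the longest and the shortest genes. Clock is long and poor in GC (40.9%, 8.85th percentile, length 96.4th percentile), and Dbp short and rich in GC (61.6%, 98.0th percentile, length 12.8th percentile). The GC measure was 0.52 in Pool 1 mouse 5, 0.29 in Control mouse 1, 0.25 in Pool 2 mouse 1 and 0.23 in Pool 2 mouse 3, against -0.32 to 0.03 in the other 16 libraries. The length measure was lowest in Control mouse 1 (-0.49), Pool 1 mouse 5 (-0.41), Vehicle mouse 5 (-0.28), Control mouse 2 (-0.27), Pool 2 mouse 1 (-0.21) and Pool 2 mouse 3 (-0.19), against -0.05 to 0.25 in the other 14 libraries. The 5 libraries with the lowest Clock were among these 6, and Control mouse 2 had Clock at 105 CPM. Vehicle mouse 5, with low Clock, had a GC measure of -0.10.

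Over the 20 mice Clock followed the GC measure with r = -0.87 (permutation p = 2e-05, adjusted p = 0.0002 over 20 such relations; rho = -0.73) and the length measure with r = 0.88 (permutation p = 2e-05, adjusted p = 0.0002; rho = 0.84). Dbp followed the length measure with r = -0.68 (permutation p = 0.0009, adjusted p = 0.0045; rho = -0.73) and the GC measure with r = 0.55 (permutation p = 0.0125, adjusted p = 0.0418; rho = 0.47). Without Control mouse 1 and Pool 1 mouse 5, farthest from the median of both measures, r was -0.71 and 0.80 for Clock and 0.23 and -0.54 for Dbp with the GC and length measures in turn. Nr1d1 had r = 0.54 with the GC measure (adjusted p = 0.0418 by permutation) and Per3 r = 0.70 with the length measure (adjusted p = 0.00247 by permutation), or 0.43 and 0.55 without those mice. Arntl had r = 0.40 and -0.28 with the measures, neither with an adjusted p under 0.05.

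**Figure D4:**
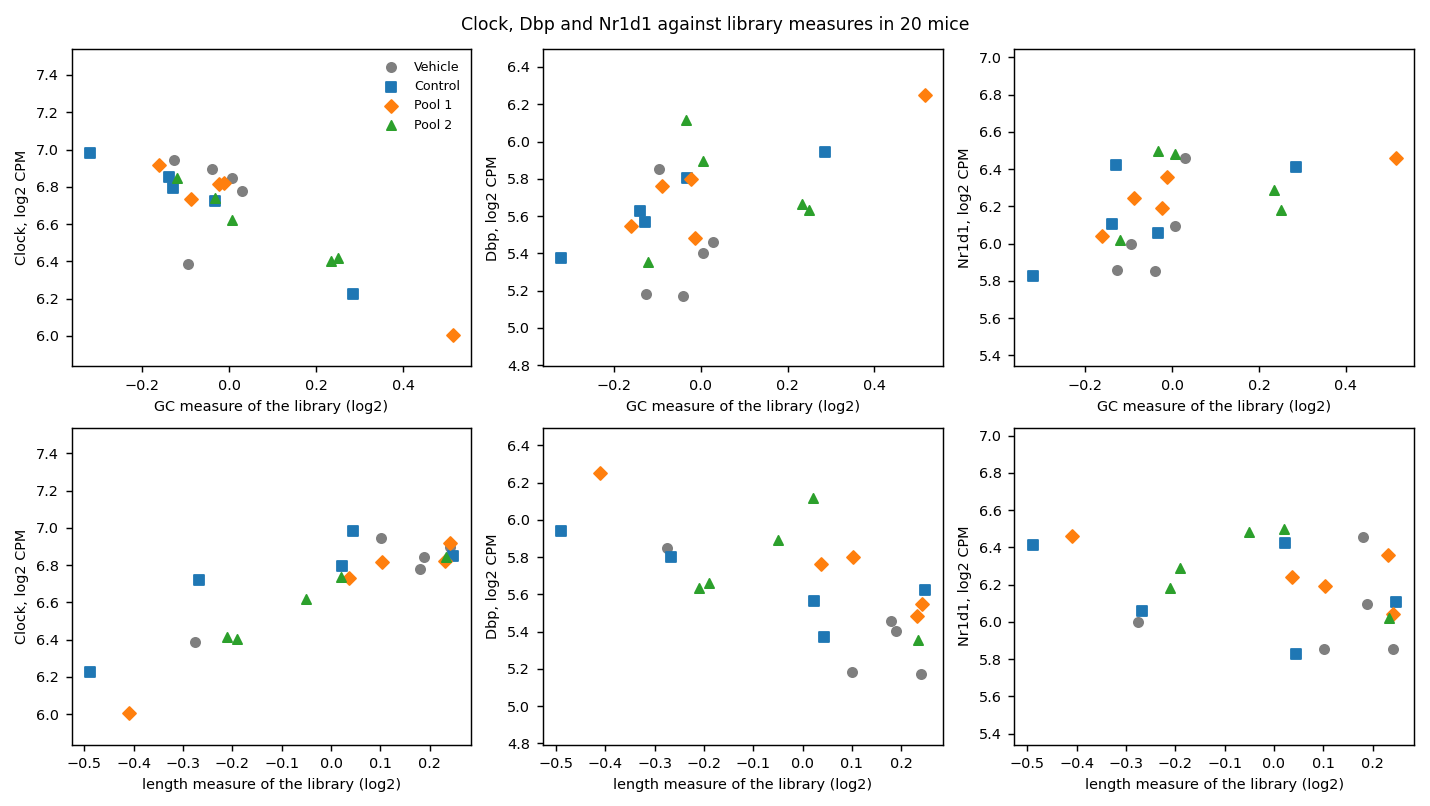
Log2 CPM of Clock, Dbp and Nr1d1 (y axes) against the GC measure (upper row) and length measure (lower row) of each of the 20 libraries, coloured by group. Clock declines with the GC measure (r = -0.87) and climbs with the length measure (r = 0.88), with Pool 1 mouse 5 and Control mouse 1 at the extremes.

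The relation of Clock and Dbp was not retained once both measures had been regressed out of each gene (r = -0.34, permutation p = 0.141), while that of Nr1d1 and Dbp was of like size (r = 0.64, permutation p = 0.0022, adjusted p = 0.0808). Dbp and Arntl then had r = 0.23 (permutation p = 0.335), Per1 and Per2 r = 0.56 (permutation p = 0.0106), Clock and Per3 r = -0.04 and Dbp and Per3 r = 0.04. The largest remaining negative value was that of Clock and Cry2 (r = -0.61, permutation p = 0.00359, adjusted p = 0.0808), which had r = -0.40 before. After this step 0 of the 45 pairs passed an adjusted p of 0.05, and the sign of Dbp and Arntl was still positive. The p-values of this step came from shuffling the residuals freely over the mice. They do not allow for the measures already fitted and are therefore too small.

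**Figure D5:**
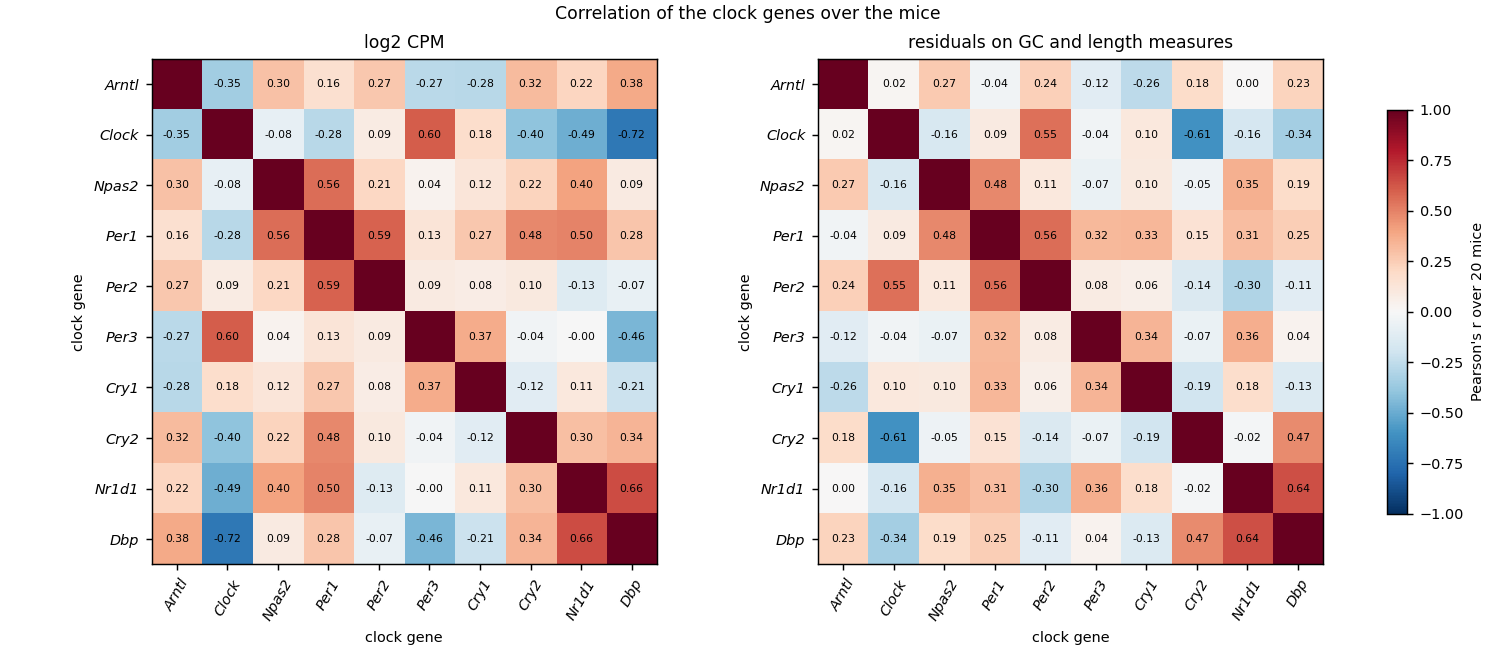
Pearson's r over 20 mice for each pair of clock genes, from log2 CPM (left) and from residuals on the GC and length measures (right), with both axes listing the genes. Clock and Dbp go from -0.72 to -0.34 and Clock and Per3 from 0.60 to -0.04, while Nr1d1 and Dbp stay near 0.65 (0.66 and 0.64).

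A score per mouse was also computed as a description, without a test: the mean log2 CPM of Dbp, Nr1d1, Per1, Per2 and Per3 minus that of Arntl, Npas2 and Clock. It averaged 0.33 ± 0.16 (SD, n = 5) in Vehicle, 0.50 ± 0.18 in Control, 0.49 ± 0.20 in Pool 1 and 0.49 ± 0.09 in Pool 2. The Vehicle mean was thus the lowest, Vehicle mice ranged from 0.19 to 0.56, and the other groups from 0.27 to 0.74. The highest scores belonged to Pool 1 mouse 5 (0.74) and Control mouse 1 (0.73), the libraries at the ends of the GC and length measures, and over the 20 mice the score had r = 0.67 with the GC measure and -0.61 with the length measure. The first principal component of the 10 genes, 40.4% of their variance, set Dbp (loading 0.59) and Nr1d1 (0.39) against Clock (-0.52) and Per3 (-0.25), with Arntl near 0 (0.10). It had r = 0.80 with the GC measure and -0.70 with the length measure. The second component (24.1%) was carried by Npas2 (-0.54) and Per1 (-0.52). The part of library composition in these scores was not tested further.

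The 10 partners of the loop followed here (Nr1d2, Rora, Rorb, Ciart, Bhlhe40, Bhlhe41, Nfil3, Tef, Hlf and Arntl2) gave little more. Rora, which encodes an activator of Arntl that acts through ROR elements, was the only one past the threshold, in 1 comparison. In Pool 1 versus Control, Pool 2 versus Control and Control versus Vehicle, 0 of the 10 passed, in edgeR as in DESeq2. At an unadjusted p under 0.05 edgeR called 2 of the 10 in Pool 2 versus Pool 1, Rora and its paralog Rorb (0.29), where 8.52% of all genes were called (6.82% past the threshold), and 0 in the others. Rora was higher in Pool 2 (58.6 ± 34.2 CPM, SD, n = 5) than in Pool 1 (32.3 ± 5.76 CPM), a log2 difference of 0.86 ± 0.31 (SE, adjusted p = 0.415 in edgeR, exact permutation p = 0.0794). Its values ran from 29.2 to 115 CPM in Pool 2 and from 23.1 to 39.0 CPM in Pool 1, so the groups overlapped. Rora is also strongly expressed in thalamus, and the summed level of 5 thalamus markers ran from 71.6 to 366 CPM in Pool 2 and from 42.1 to 75.6 CPM in Pool 1, with none of the 5 at 0. Without Pool 2 mouse 4, the library with the most thalamus marker RNA, the difference was 0.47 and did not pass the threshold. The part of thalamic tissue in the Rora difference was not tested.

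Genes that act on the clock proteins or on the clock from outside were counted in the same way. Of 12 kinases, ubiquitin ligase subunits and other modifiers of clock proteins, 0 passed the threshold in any of the 4 comparisons with either tool, and 1, the deubiquitinase gene Usp2 in Pool 2 versus Pool 1 (0.26), had an unadjusted p under 0.05 in edgeR (background 8.52%). Of 11 activity-induced genes, among them Fos and Arc, 0 passed in any comparison and 0 had an unadjusted p under 0.05, with edgeR or DESeq2. Of 11 glucocorticoid-responsive genes, Mt1, which encodes a metallothionein, passed in Pool 2 versus Pool 1 at 0.37 ± 0.17 (adjusted p = 0.559 in edgeR, exact permutation p = 0.0873), and 0 passed in the other comparisons with either tool (background 6.82% in Pool 2 versus Pool 1). Mt1 did not pass under 11 of 29 alternatives, among them the fit with GC and length covariates (0.28), and ranged from 0.19 without Pool 2 mouse 1, the library highest in astrocyte and microglia markers, to 0.45. Errfi1, of the same list, had an unadjusted p under 0.05, at -0.22 in Pool 2 versus Pool 1 (background 8.52%). Of 8 temperature-responsive genes, Hspa5, which encodes a chaperone of the endoplasmic reticulum, was lower in Pool 1 than in Control, at -0.32 ± 0.12 (adjusted p = 0.917 in edgeR, exact permutation p = 0.0317), where 3.48% of all genes passed, and 0 of the 8 passed in the other comparisons in edgeR. Hspa5 did not pass under 6 of 29 alternatives, among them the fit with GC and length covariates (-0.28), and ranged from -0.39 to -0.22, the latter without Control mouse 1. In Control versus Vehicle, Rbm3, which encodes a cold-inducible RNA-binding protein, had an unadjusted p under 0.05 at 0.24 (background 6.64%).

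The genes whose pattern over the 20 libraries was most like that of Dbp, among 14787 genes with a mean of at least 1 CPM, were C1qtnf4 (r = 0.91), Pgm1 (0.87), Dmac1 (0.86), Fndc4 (0.86) and H2ax (0.86), and the most opposed were Slc5a3 (-0.87), Gm26779 (-0.84), Gm10033 (-0.83), Acbd3 (-0.83) and Agps (-0.81). None is one of the loop partners. Of those, Ciart, a repressor with the same daily timing as Dbp in other tissues, came nearest (r = 0.59, 94.3rd percentile), followed by Bhlhe40 (0.51, 88.7th percentile) and Bhlhe41 (0.42, 82.6th percentile). The other PAR bZIP genes Tef (-0.11) and Hlf (0.08) and the paralog of Nr1d1, Nr1d2 (-0.08), lay near 0. For Arntl the most like were Zfp777 (0.79), Nim1k (0.73), Apbb3 (0.72), Spag4 (0.72) and Bnip1 (0.71), and the most opposed Lbr (-0.71), Zfp54 (-0.65), Osr1 (-0.64), Slc38a2 (-0.63) and Slc12a8 (-0.62). Nr1d2, a repressor of Arntl, had r = -0.38 with it (4.58th percentile), and Rora -0.34 (7.42nd percentile). All these values share the libraries and their composition and are given as descriptions.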

How the data were processed

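Bulk RNA-seq of hippocampal tissue from 20 mice was analysed. The authors made stranded polyadenylated libraries, aligned reads to GRCm38 with STAR, counted them per gene and deposited raw counts, with the sequencing rounds of a library summed. Groups followed the sample labels, which number the samples 1 to 5 in each group, and each sample was taken as 1 mouse. The 10 genes, the further lists and the tests were chosen with earlier results of these data known. TMM factors scaled the counts of all 25190 genes, and the quasi-likelihood test of edgeR 4.0.16 (robust glmQLFit, glmQLFTest; R 4.3.3) was run in 1 fit of 4 groups, with Benjamini-Hochberg adjustment over all genes. DESeq2 1.42.0 was an alternative. Intervals are 95%. CPM used TMM factors, and log2 CPM a prior count of 2. Exact permutation tests were two-sided, and correlations used 100000 two-sided permutations. Lengths and GC content came from GENCODE M21, and gave a value for 97.0% of the genes used for the library measures. The lengths are those of merged exons for levels per kilobase and of the longest transcript otherwise. The covariate fit and the residuals were chosen after seeing the data. Named genes were the 10 genes, list members past the threshold, and the 5 genes most like and most opposed to Dbp and to Arntl. The edgeR and DESeq2 fits and the correlation test were tried on simulated data. The planted changes and correlations were larger than those seen among the clock genes here. The covariate, residual and block steps were not simulated. Over the replicate numbers, deviations from the group means correlated between -0.50 and 0.46 in 30 pairs of libraries, with 10 above 0.1, so the numbers were not taken to pair mice. Over the clock genes alone these correlations ran from -0.65 to 0.79, with a median of 0.10 and 15 above 0.1. Whether the numbers follow a shared order of sampling was not tested. Counts of libraries of the same group differed beyond sampling noise in every pair. In the lists of further genes and markers, 2 genes are not reported here and were left out of counts and sums.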

Additional observations from a re-analysis of the deposited data

Results flagged for a closer look

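In 40 sets of 5 mice (10 genes in 4 groups), 4 had a mouse far from the others of its group by Dixon's criterion, which chance alone meets in about 1 of 20 sets. Clock was 64.2 CPM in Pool 1 mouse 5, against 106 to 121 CPM in the other Pool 1 mice. Per1 was 80.5 CPM in Control mouse 1, against 54.3 to 61.8 CPM in the other Control mice, and 86.2 CPM in Pool 2 mouse 1, against 59.7 to 65.5 CPM in the other Pool 2 mice. Per2 was 32.6 CPM in Vehicle mouse 5, against 42.8 to 46.3 CPM in the other Vehicle mice. Of the 4 libraries so marked, Pool 1 mouse 5, Control mouse 1 and Pool 2 mouse 1 had the highest GC measures of the 20 and Vehicle mouse 5 the third lowest length measure. The part of these measures in the single values was not tested.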

How the results depend on the processing

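The counts of clock genes past the study's threshold were 0 in all 4 comparisons under DESeq2, DESeq2 size factors, both filters on low counts, the default spread, the replicate block, the fits of only 2 groups and the fits without Vehicle mouse 4 and Pool 2 mouse 1 or with GC and length covariates. Leaving out 1 library at a time gave 0 to 1 in Pool 1 versus Control and in Pool 2 versus Control (Npas2, without Control mouse 5), 0 to 1 in Control versus Vehicle (Dbp, without Vehicle mouse 5) and 0 in Pool 2 versus Pool 1. The count of 1 clock gene (Cry2) in the test of 4 groups was 0 with the replicate block and 0 without Vehicle mouse 4 and Pool 2 mouse 1. It ranged from 0 to 2 with 1 library left out: it was 0 without any 1 of Vehicle mice 2 and 4, Control mice 2 and 3, Pool 1 mice 1, 2, 3 and 5 and Pool 2 mice 1, 2, 4 and 5, and 2 without Vehicle mouse 1 (Cry2 and Nr1d1) or Vehicle mouse 5 (Cry2 and Dbp), while without Control mouse 5 it was Npas2 alone. The correlation of Dbp and Arntl was positive throughout, 0.34 with the replicate block and 0.31 to 0.47 with 1 library left out, the highest, without Pool 2 mouse 4, having an unadjusted permutation p under 0.05. That of Nr1d1 and Dbp was 0.41 with the replicate block and that of Clock and Dbp -0.34 on the residuals, neither then under 0.05. With the block, 3 of the 45 pairs had an adjusted permutation p under 0.05. They were Clock and Per3 (r = 0.76), Clock and Dbp (-0.66) and Cry1 and Nr1d1 (0.63, against 0.11 without the block). The p-values with the block came from shuffling the remaining values freely over the mice, without allowing for the terms already fitted. They are therefore too small, and no pair is read as passing with the block. The replicate numbers were not taken to pair the mice, so the block is a check of the numbers only.

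Differences near 0 changed sign, and none of these had passed the threshold. With GC and length covariates, Per2 (-0.072) and Nr1d1 (-0.018) in Pool 1 versus Control, Arntl (-0.016) and Per1 (-0.051) in Pool 2 versus Control, Clock in Pool 2 versus Pool 1 (0.011), and Arntl (-0.0023) and Clock (0.047) in Control versus Vehicle did so. Arntl in Pool 2 versus Control was -0.0076 in DESeq2, -0.0073 with its size factors, -0.012 with filterByExpr and -0.021 with only the 2 groups. Per3 in Pool 2 versus Pool 1 was -0.011 with only the 2 groups, Arntl in Control versus Vehicle -0.00067 with the filter at a mean normalized count of 10, and Per1 in Control versus Vehicle -0.057 without Vehicle mouse 4 and Pool 2 mouse 1. With 1 library left out, differences in Pool 1 versus Control ran from -0.014 to 0.079 for Arntl, -0.15 to 0.087 for Clock, -0.0100 to 0.11 for Per2, -0.17 to 0.065 for Per3 and -0.020 to 0.19 for Dbp. Those in Pool 2 versus Control ran from -0.052 to 0.040 for Arntl, -0.083 to 0.081 for Per3 and -0.027 to 0.17 for Dbp. In Pool 2 versus Pool 1 they ran from -0.11 to 0.087 for Npas2, -0.080 to 0.15 for Per3, -0.014 to 0.10 for Nr1d1 and -0.15 to 0.10 for Dbp, and in Control versus Vehicle from -0.036 to 0.057 for Arntl, -0.13 to 0.056 for Clock and -0.094 to 0.15 for Per1. The cause was not tested. With 5 mice a group, the intervals of 29 of the 40 differences extend past 0.3 on the log2 scale.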
